A study of Mus musculus with 153 samples.

Results

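Ribosome-bound RNA of parvalbumin interneurons was compared with that of somatostatin interneurons in the dorsal hippocampus of mice that had stayed in their home cage. The Pvalb libraries came from mice of genotype Pvalb.Cre/TRAPfl and the Sst libraries from mice of genotype Sst.Cre/TRAPfl, so in each line a Cre driver decides which cells carry the TRAP allele, and age and strain are not given in the sources used here. TRAP, translating ribosome affinity purification, tags ribosomes in the Cre-expressing cells so that they can be pulled out of the tissue together with the mRNA they hold. Such a library therefore reports on every cell in which the driver was ever active, and not on a sorted cell type. All home cage columns of the purified fraction in the 15 min and 60 min sets of both lines were taken: 19 of the 153 samples of the series, with 4 Pvalb and 4 Sst libraries in the 15 min set and 6 Pvalb and 5 Sst libraries in the 60 min set. Home cage mice served as controls for mice placed in a new context or shocked there, so the time set names the experiment a library belonged to. The total lysates of home cage mice, 9 in each line, hold RNA of all cells of the tissue and were used to see what differed between the lines before purification.

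Parvalbumin and somatostatin interneurons both arise from the medial ganglionic eminence and release GABA. Parvalbumin cells are mostly fast-spiking basket and chandelier cells, which fire brief spikes at high rates onto the cell bodies and axon initial segments of pyramidal cells. Somatostatin cells mostly target dendrites and release neuropeptides beside GABA. In the hippocampus they include the oriens-lacunosum moleculare cells, whose excitatory inputs facilitate because they express the adhesion protein Elfn1.

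Total counts ran from 58697820 to 397228206 per purified library and from 36843030 to 275026148 per lysate. In the Sst 60 min set, purified libraries 4 and 5 held 397228206 and 290656072 counts, and 1 to 3 held 58697820 to 70408556. Lysates 4 and 5 of that set held 275026148 and 264109341, and 1 to 3 held 48941990 to 79349264. The part of this split in the results was not tested. Each deposited table holds 1 line and 1 time set, so a difference between the lines and a difference between the tables cannot be told apart. The submitters call the samples biological replicates, and p-values measure the spread between them. In bulk RNA, fewer cells of a type and less RNA per cell cannot be told apart either.

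Of the 19 purified libraries, 3 stood apart from their group. The library labelled Sst 15 min replicate 2 held 1378 CPM of Pvalb (CPM are counts scaled to a common library total) and 205 CPM of Sst, more Pvalb than any Pvalb library and less Sst than 9 of the 10. Its Sst level was below that of its own lysate, 279 CPM. Its log2 CPM correlated with the Pvalb libraries at a median r of 0.91 and with the other Sst libraries at 0.88, across genes of single libraries. The lysate of the same number carried the Pvalb line's levels of both genes, with 20.4 CPM of Pvalb. The Sst 60 min libraries 1 and 3 held 787 and 242 CPM of Sst and 307 and 335 CPM of the microglial complement gene C1qa, which was at 3.74 to 21.0 CPM in the 6 other Sst libraries. Summed over the 18 parvalbumin neuron genes of the marker list, the Pvalb libraries ran from 4234 to 5542 CPM and the 6 remaining Sst libraries from 1934 to 2954, while the library labelled Sst 15 min replicate 2 was at 4550.5. Values below use the libraries as labelled. Counts are given also without these 3, and each gene named below kept its call without them unless stated.

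**Figure D1:**
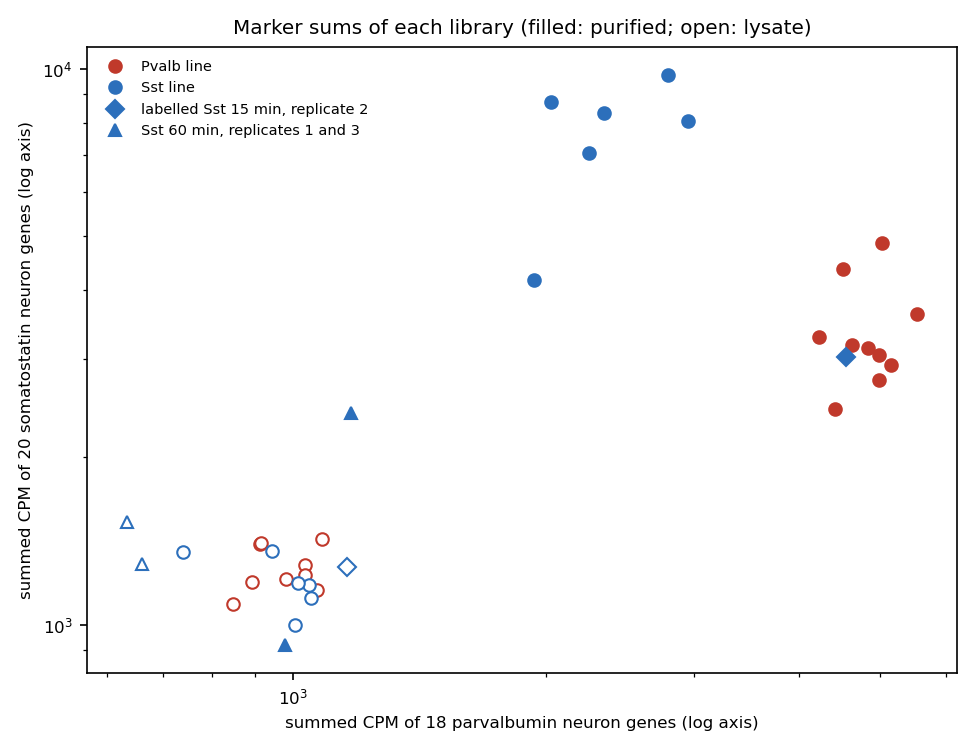
Summed CPM of 20 somatostatin neuron genes (y axis, log) against summed CPM of 18 parvalbumin neuron genes (x axis, log) in each home cage library, filled for purified and open for lysate, red for the Pvalb and blue for the Sst line. The diamond labelled Sst 15 min replicate 2 lies among the Pvalb libraries, the 2 filled triangles (Sst 60 min replicates 1 and 3) lie near the lysates on the x axis, and the 6 other Sst libraries form a group of their own.

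The 2 genes that name the classes are both on the minus strand, Pvalb at chr15:78191114-78206400 and Sst at chr16:23889573-23890958 (GRCm38, GENCODE M21). Their proximal promoters, from RefSeq on GRCm38.p6, are shown because these are the genes whose Cre alleles define the comparison. Each runs 5′ to 3′ on the gene's strand, from 250 bases before to 50 bases after an annotated start. Capitals mark TGACGTCA, the palindromic cAMP response element for which the somatostatin promoter is known. It lies 48 bases before the RefSeq start that the Sst window is drawn from, and both that start and the element lie inside the longer GENCODE interval given above. It is not among the letters of the Pvalb window shown, and was found in 588 of 32851 promoter windows (1.79%).
Pvalb, chr15:78206351-78206650: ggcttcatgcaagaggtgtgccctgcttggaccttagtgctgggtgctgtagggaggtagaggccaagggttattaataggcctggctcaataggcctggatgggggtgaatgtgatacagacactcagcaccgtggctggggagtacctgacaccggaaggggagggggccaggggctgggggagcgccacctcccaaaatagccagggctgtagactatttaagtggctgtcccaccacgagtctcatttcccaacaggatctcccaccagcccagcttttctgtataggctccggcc
Sst, chr16:23890795-23891094: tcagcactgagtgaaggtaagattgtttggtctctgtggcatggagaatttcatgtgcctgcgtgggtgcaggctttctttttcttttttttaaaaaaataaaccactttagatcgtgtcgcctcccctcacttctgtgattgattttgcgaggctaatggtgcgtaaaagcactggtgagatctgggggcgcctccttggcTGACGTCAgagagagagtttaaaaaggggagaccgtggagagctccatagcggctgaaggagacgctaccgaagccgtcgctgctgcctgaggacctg

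Pvalb, the calcium buffer of fast-spiking cells, was at 581 to 903 CPM in the 10 Pvalb libraries, with a median of 754. In the Sst libraries it was at 378, 1378, 223 and 492 CPM in the 15 min set and at 72.5, 189.7, 27.6, 224 and 334 CPM in the 60 min set. Only the library labelled Sst 15 min replicate 2 reached the Pvalb range. Over all 19 libraries the log2 fold change was 1.40 ± 0.47 (SE) with an adjusted p of 0.0379 (quasi-likelihood test in edgeR, adjusted over all genes by Benjamini-Hochberg, as everywhere below). That call was lost when any 1 of 12 libraries was left out, with adjusted p up to 0.0814. Without the 3 libraries that stood apart the difference was 1.36 ± 0.20 with an adjusted p of 1.24e-04, and the groups did not overlap. Those 3 were set apart partly by their levels of Pvalb and Sst, so these values describe the remaining libraries and add no separate support.

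Sst, the neuropeptide, was at 183 to 1019 CPM in the Pvalb libraries, with a median of 325 and the highest values, 1019 and 899, in the 15 min libraries 1 and 4. In the Sst libraries it was at 3024, 205, 1062 and 2652 CPM in the 15 min set and at 787, 2395, 242, 2977 and 3535 CPM in the 60 min set. It was 2.06 ± 0.46 log2 units higher in Sst (adjusted p = 0.00528), and 2.53 ± 0.29 without the 3 libraries (adjusted p = 8.78e-06), where the lowest Sst library was just above the highest Pvalb library. As for Pvalb, this separation follows in part from how the 3 libraries were picked. Both marker genes were enriched over the lysate even in the other line: Pvalb by 5.71 log2 units in the Pvalb line and 3.32 in the 6 Sst libraries, Sst by 4.48 in those 6 libraries and 0.91 in the Pvalb line.

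Syt2, the fast calcium sensor of parvalbumin terminals, was at 11.4 to 33.3 CPM in the Pvalb libraries and at 3.53 to 9.79 CPM in the 6 Sst libraries, with 25.3 in the library labelled Sst 15 min replicate 2. It was 1.92 ± 0.43 log2 units higher in Pvalb over all libraries (adjusted p = 0.00546). Elfn1 was at 5.56 to 31.6 CPM in the Pvalb libraries and at 48.6 to 153 CPM in the 6 Sst libraries. Over all libraries it was 1.49 ± 0.39 log2 units higher in Sst (adjusted p = 0.0128). Npy, a peptide of many somatostatin cells, was abundant in both lines, at 196 to 1813 CPM in Pvalb and 732 to 3757 CPM in the 6 Sst libraries, which overlapped. Its difference, 0.84 ± 0.49 log2 units toward Sst, did not pass the test over all libraries (adjusted p = 0.222) and passed it without the 3 (1.31, adjusted p = 0.0186). The 3 were picked partly by their levels of Pvalb and Sst, so the gained call adds no separate support. Among the Pvalb libraries, the 15 min replicates 2 and 3 held 235 and 196 CPM of Npy and replicates 1 and 4 held 1813 and 1564.

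**Figure D2:**
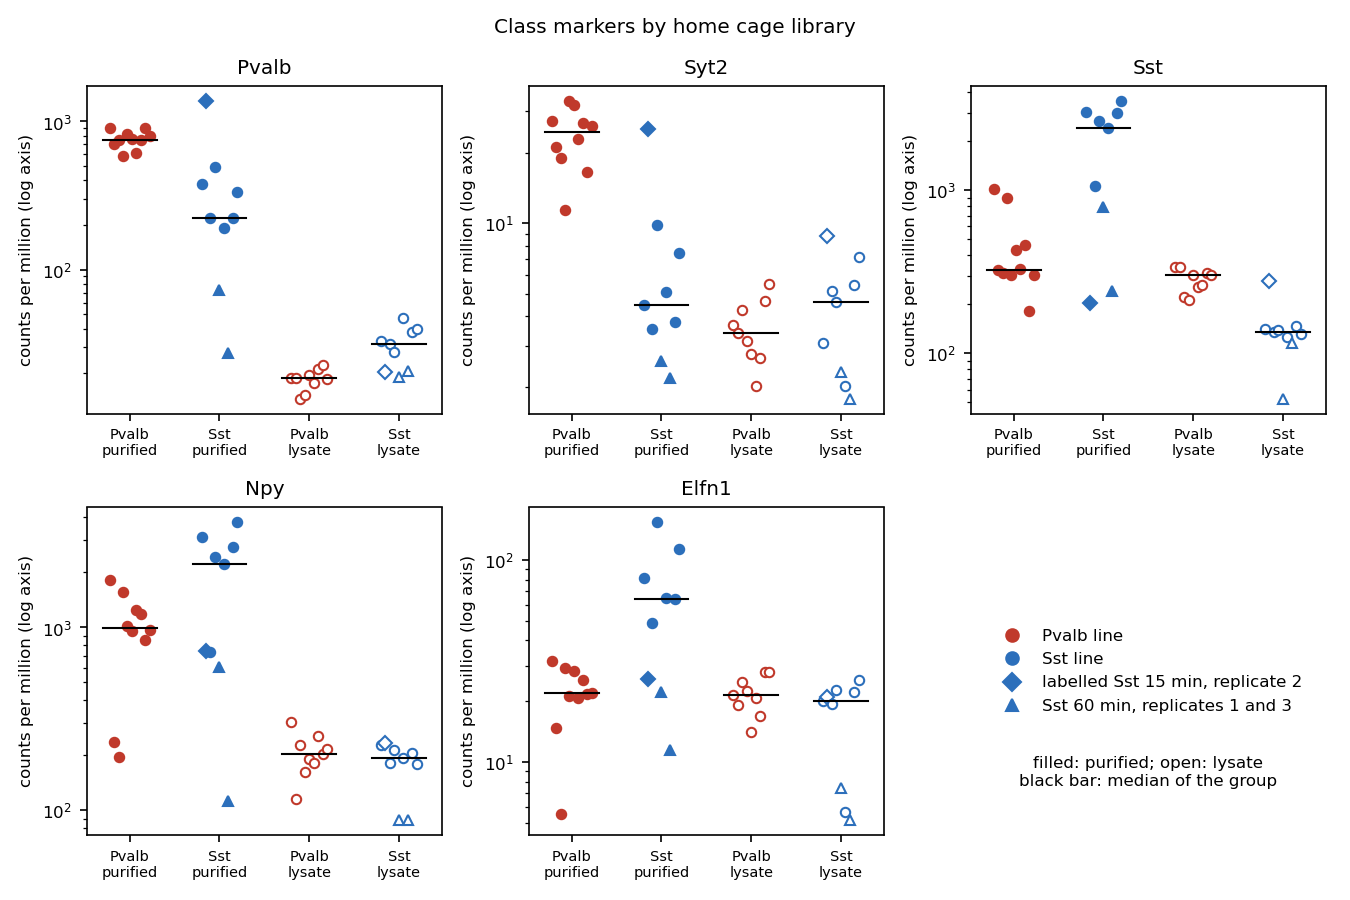
CPM (y axis, log) of Pvalb, Syt2, Sst, Npy and Elfn1 in each home cage library by line and fraction, with black bars at group medians. Purified Pvalb libraries sit above the Sst libraries for Pvalb and Syt2 except for the diamond, and the lysate medians of each line are lower in its own driver gene.

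In the lysates, 99 of 16958 genes differed between the lines (0.584%), 63 higher in the Pvalb line and 36 higher in the Sst line. The driver genes were among them, each lower in its own driver line. Pvalb was at 18.2 ± 3.04 CPM (SD, n = 9) in Pvalb-line lysates and at 30.8 ± 9.75 CPM (SD, n = 9) in Sst-line lysates, and edgeR's log2 difference was -0.85 ± 0.17 (adjusted p = 0.0269). Sst was at 282.7 ± 47.4 CPM in Pvalb-line lysates and 141.0 ± 59.0 CPM in Sst-line lysates (SD, n = 9 each), a log2 difference of 0.98 ± 0.19 toward the Pvalb line (adjusted p = 0.0272). Without the lysates of the 3 numbers that stood apart, these 2 genes were all that differed among 16877 (0.0119%), both at an adjusted p of 0.00557, and 1936 genes had an unadjusted p under 0.05. Sst 60 min lysate 2 stayed in that fit, and leaving it out too gave 39 genes. Summed pyramidal neuron genes were at 2717, 3298 and 3462 CPM in Sst 60 min lysates 1, 2 and 3, against 6453 and 6331 in lysates 4 and 5. The count of 99 over all lysates was unstable: it moved by over 1.5 times for 15 of the 18 lysates left out singly, from 18 without Pvalb 60 min replicate 6 to 2710 without Sst 60 min replicate 5, and it was 1823 with DESeq2. For both genes the lysate difference had the opposite sign to the purified one.

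Across genes, 16520 passed the filter on low counts in the purified fraction, and 1498 were higher in Pvalb (9.07%) and 1983 higher in Sst (12%) at an adjusted p under 0.05. Without the 3 libraries 1395 (8.44%) and 1861 (11.3%) of 16528 genes were called, and 1075 of the Pvalb genes and 1623 of the Sst genes were called both times. The median log2 fold change over all genes was 0.00 with and 0.02 without them. Single libraries moved the counts: leaving out Sst 60 min replicate 1, 3 or 5 left 853, 804 or 883 genes higher in Pvalb, and leaving out the library labelled Sst 15 min replicate 2 raised the genes higher in Sst to 3103. With the lysates taken into account, 2633 of 17608 genes were enriched more in Pvalb (15.0%) and 2701 more in Sst (15.3%), and without the 3 libraries and their lysates 1305 (7.45%) and 2102 (12%). Of the genes higher in Pvalb, 1229 were also called in that comparison, as were 1668 of those higher in Sst. Set against the enrichment over the lysate of the same line, 1157 of the genes higher in Pvalb (77.2%) were enriched in the Pvalb line, against 22.0% of all genes, and 631 of the genes higher in Sst (31.8%) were enriched in the Sst line, against 14.7%. These comparisons draw on the same purified libraries as the calls themselves, so the shared calls and higher shares are no separate support.

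The genes with the smallest p that were higher in Pvalb, also beyond the lysate, and enriched in the Pvalb line were Ift27, Adamts8, Lrp4, Ttc39b, Cd24a, Brip1os, Rarres2, Mro, Adamtsl5, Pthlh, Dmkn and Riiad1. Ift27, a subunit of the intraflagellar transport machinery of cilia, was at 122 to 212 CPM in the Pvalb libraries (median 159) and 33.5 to 58.3 CPM in the 6 Sst libraries, and at 137 CPM in the library labelled Sst 15 min replicate 2. It was 1.54 ± 0.22 log2 units higher in Pvalb (adjusted p = 3.72e-04). This gene lies at chr15:78159463-78174107, on the same strand as Pvalb and 17 kb downstream of its end, and it is the nearest tested gene. In the lysates it did not pass the test (log2 difference 0.30, adjusted p = 0.171). Of the 11 tested genes within 250 kb of Pvalb, 2 were higher in purified Pvalb, against 9.07% of all genes (Ift27 and the AMPA receptor auxiliary subunit gene Cacng2, the latter at an adjusted p of 0.0587 without the 3 libraries), 1 was higher in purified Sst, against 12% (Eif3d), and none differed in the lysates. The only tested gene within 250 kb of Sst was Bcl6, 74.1 kb away, which was 0.81 log2 units higher in purified Pvalb (adjusted p = 0.0464). The calls of Cacng2 and Bcl6 were lost when any 1 of 12 or 15 libraries was left out, with adjusted p up to 0.104 and 0.111.

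Pthlh, the parathyroid hormone-like peptide and a marker of parvalbumin cells, was at 28.1 to 129 CPM in Pvalb and 6.42 to 20.4 CPM in the 6 Sst libraries, a log2 difference of 2.93 ± 0.49 (adjusted p = 9.11e-04). Adamts8, a secreted protease, was at 20.4 to 38.8 CPM in Pvalb and 4.13 to 13 CPM in those Sst libraries. Lrp4, the agrin receptor, kept its groups apart even with all 19 libraries: 8.27 to 30.8 CPM against 2.26 to 7.56 CPM. The same held for Rarres2, which encodes the secreted protein chemerin, at 18.8 to 53.8 CPM in Pvalb and 1.66 to 16.0 CPM in Sst. Cd24a, a surface glycoprotein gene, spanned 100.4 to 249 CPM in Pvalb and 10.3 to 25.9 CPM in the 6 Sst libraries, and its log2 difference was 2.92 ± 0.47 (adjusted p = 7.07e-04). Reads of Brip1os, annotated as antisense to Brip1, cannot be assigned to a strand with this library kit. All 12 differences kept their call when any single library was left out, which follows in part from choosing the smallest p.

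Among the 1983 genes higher in Sst, the corresponding 12 were Tagln3, Npffr1, Klk8, Syt5, Arhgdib, Gap43, Tmem158, Cpne5, Tmem91, Uchl1, Necab2 and Cdh22. Npffr1, a receptor for RFamide neuropeptides, showed the largest fold among them. It was at 0.823 to 3.89 CPM in the Pvalb libraries and at 64.2, 0.689, 29.0 and 69.7 CPM in the Sst 15 min and 53.9, 36.5, 52.6, 62.5 and 87.6 CPM in the Sst 60 min libraries. The library labelled Sst 15 min replicate 2 was below every Pvalb library, and the Sst 60 min libraries 1 and 3, low in Sst itself, lay within the range of the others. The log2 difference was 4.43 ± 0.51 toward Sst (adjusted p = 9.12e-05). Tagln3, a neuronal transgelin, was at 182 to 328 CPM in Pvalb and 665 to 1196 CPM in the 6 Sst libraries, a difference of 1.95 ± 0.21 (adjusted p = 8.56e-05).

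Necab2, a neuronal calcium-binding protein gene, was at 15.4 to 62.3 CPM in Pvalb and 179.6 to 494 CPM in the 6 Sst libraries (log2 difference 3.0 ± 0.41 toward Sst). Gap43, the growth-cone phosphoprotein gene, was at 66.9 to 115 CPM in Pvalb and 298 to 591 CPM in those libraries. Syt5, a synaptotagmin gene, was at 35.9 to 84.7 and 211 to 369.5 CPM. Klk8, the serine protease neuropsin, and Arhgdib, a GDP-dissociation inhibitor gene, had their highest values in the Sst 60 min libraries 1 and 3, with 77.0 and 86.0 CPM of Klk8 and 112 and 96.4 CPM of Arhgdib. Microglia genes and pyramidal neuron genes were both high in the same 2 libraries, as described below. Summed microglia genes were at 4093 and 4507 CPM there, against 115 to 360.1 in the 6 other Sst libraries. The part of either cell type in Klk8 and Arhgdib was not tested. In all 12 genes the groups were separate without the 3 libraries, as in 235 of the 1983 genes higher in Sst (11.9%). Over all genes, called or not, 252 were separate in this direction. All 12 kept their call when any single library was left out. The 12 were chosen for the smallest p over these same libraries, so both traits follow in part from that choice.

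**Figure D3:**
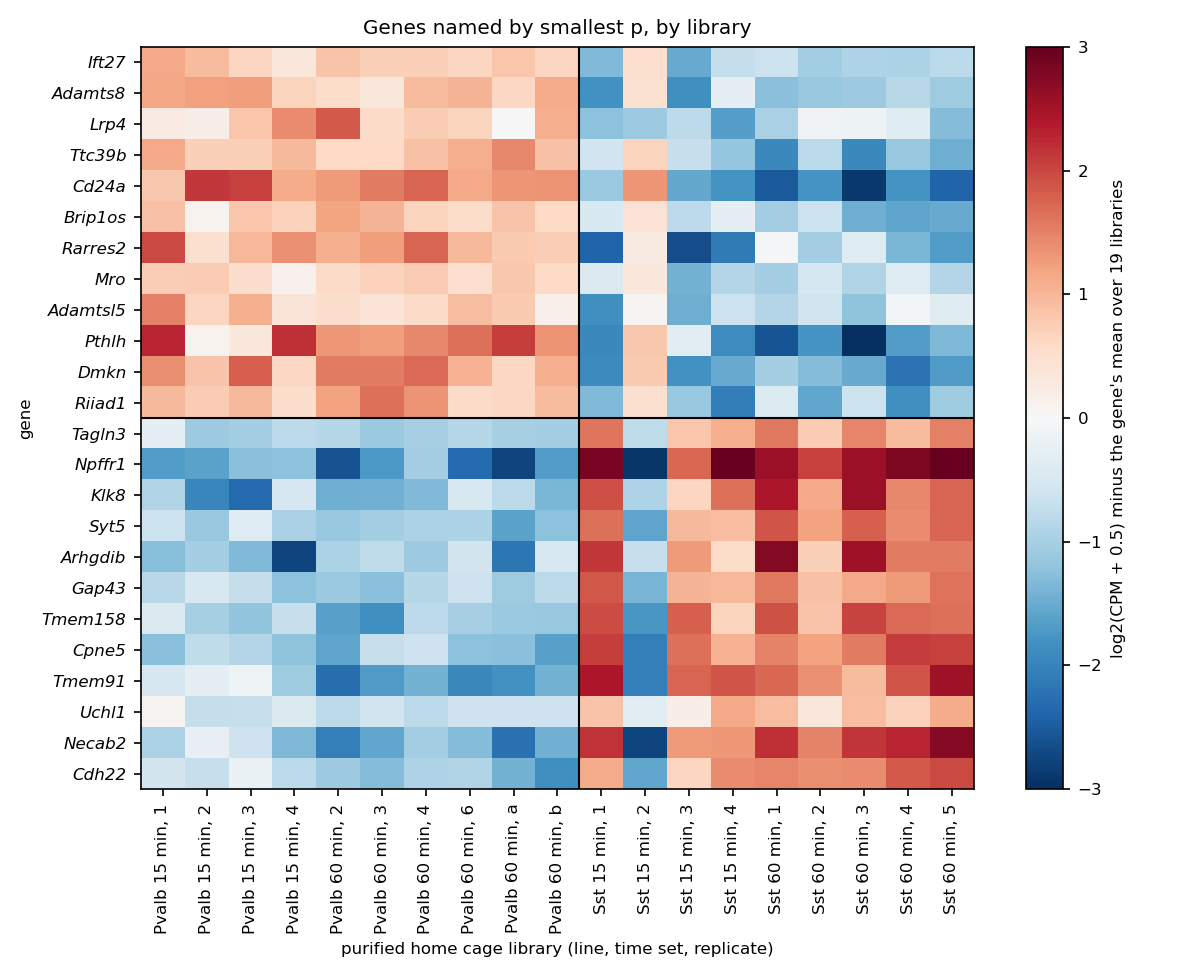
Log2(CPM + 0.5) minus each gene's mean over the 19 purified libraries, for the 12 genes named in each direction (rows) by library (columns; a and b are columns without a replicate number). The library labelled Sst 15 min replicate 2 has the colours of the Pvalb libraries in nearly all rows.

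The parvalbumin neuron list had 15 of its 18 tested members higher in Pvalb and 0 higher in Sst, against 9.07% and 12% of all genes, and its median log2 fold change was 1.46. The same 15 were called without the 3 libraries. Beside Pvalb, Pthlh and Syt2 they included Btbd11, a synaptic ankyrin-repeat protein gene (1.89 ± 0.37, adjusted p = 0.00231). Kcnc2, which encodes the fast Kv3 channel subunit Kv3.2, was at 645 to 1334 CPM in Pvalb and 154 to 480.4 CPM in the 6 Sst libraries (1.89 ± 0.39, adjusted p = 0.00359). Erbb4, Akap5 and Hapln4 did not pass the test. Counts of list members below are to be read against the same shares, 9.07% of all genes toward Pvalb and 12% toward Sst. They are counts over both time sets. Of 150 genes chosen for naming that were called over all libraries, 46 were called in the 15 min set without the library labelled Sst 15 min replicate 2, and 131 in the 60 min set without Sst replicates 1 and 3. These are named the reduced 15 min and 60 min sets in what follows, and they hold fewer libraries. From each list, genes are named among the called members with the largest fold, and further members were chosen for their known roles after their values had been seen. Each of those further members was called both with and without the 3 libraries.

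Of the 20 somatostatin neuron genes, 10 were higher in Sst and 1, Nxph1, was higher in Pvalb, with a median of -1.28. All 11 were called again without the 3 libraries, when Npy joined them. Those 3 were picked partly by their levels of Pvalb and Sst, so this adds no separate support. The call of Nxph1, a neurexin ligand gene, was lost when any 1 of 12 libraries was left out, with adjusted p up to 0.0936. Penk and Pdyn, the enkephalin and dynorphin precursors, were 1.95 ± 0.36 and 1.89 ± 0.45 log2 units higher in Sst (adjusted p = 0.00173 and 0.00763). The extracellular glycoprotein gene Reln was at 110.2 to 294 CPM in the 6 Sst libraries and 22.3 to 75.2 CPM in Pvalb. Cdh13, a cadherin gene, was among the few genes whose groups did not overlap with all 19 libraries, at 47.7 to 97.2 CPM in Pvalb and 103 to 285 CPM in Sst.

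In the list of general GABA neuron genes, which both classes share, 5 of 14 were higher in Pvalb and 1 was higher in Sst over all libraries. Gad1, a GABA-synthesising enzyme, was at 2268 to 3866 CPM in Pvalb and 1138 to 2486 CPM in the 6 Sst libraries (1.26 ± 0.34, adjusted p = 0.0143). This difference was 1.43 log2 units in the 60 min set without Sst replicates 1 and 3, and 0.41 in the 15 min set without the library labelled Sst 15 min replicate 2, where it did not pass the test (adjusted p = 0.659). In that 15 min set 0 of the 14 were called toward Pvalb, where only 0.632% of all genes were called in that direction. The transcription factor Dlx2 was 0.75 log2 units higher in Sst (adjusted p = 0.0149). Of 25 transcription factor genes of interneurons from the medial ganglionic eminence, 9 were higher in Pvalb and 1 in Sst, and the same 10 were called without the 3 libraries. The former held Sox6 (1.13 ± 0.33), which acts after Lhx6 in these cells, Maf (1.32 ± 0.35), Mef2c (1.20 ± 0.35) and Ppargc1a, the coactivator of mitochondrial genes (1.14 ± 0.28). Lhx6 itself was 0.92 ± 0.29 log2 units higher in Pvalb, a call lost when any 1 of 5 libraries was left out (adjusted p up to 0.0718). In the reduced 15 min set 0 of 24 members were called toward Pvalb, against 0.632% of all genes, and in the reduced 60 min set 10 of 25, against 16.9%. Sox6, Maf, Mef2c, Ppargc1a and Lhx6 were at 0.54, 0.62, 1.03, 0.76 and 0.54 log2 units in the former. In the latter they were at 1.37, 1.24, 1.65, 1.39 and 0.69. The single gene toward Sst over all libraries was Npas1, at 21.2 to 99.9 CPM in the 6 Sst libraries and 1.74 to 11.7 CPM in Pvalb (3.05 ± 0.52 log2 units, adjusted p = 0.00103). Npas1 is also on the list of markers of interneurons from the caudal ganglionic eminence, so its difference need not lie in cells of medial origin.

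Of 66 potassium channel genes, 13 were higher in Pvalb, against 9.07% of all genes, and 6 in Sst, below the 12% of all genes, and 12 and 9 were called without the 3 libraries. Of the fast delayed rectifiers of the Kv3 family, Kcnc1 was higher in Pvalb by 1.08 ± 0.22 log2 units beside Kcnc2. Also higher there were the axonal Kv1 subunits Kcna1 (1.28 ± 0.25) and Kcna2 (1.16 ± 0.28), the Kv1 auxiliary subunit Kcnab1 (1.31 ± 0.28), and Kcng4, a modifying subunit (1.91 ± 0.42, adjusted p = 0.00475). On the Sst side was Kcnk4, a two-pore channel gene (1.99 ± 0.48, adjusted p = 0.00830). Of 41 sodium, calcium and HCN channel genes 7 were higher in Pvalb and 8 in Sst, against the same 9.07% and 12%. The sodium channel genes Scn1a (1.26 ± 0.35) and Scn4b (0.78 ± 0.19) were toward Pvalb. Toward Sst were the T-type calcium channel Cacna1g (1.6 ± 0.39, adjusted p = 0.00858) and the calcium channel subunits Cacnb1 (1.49 ± 0.26) and Cacna2d3 (0.99 ± 0.23).

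Of 48 synaptic vesicle release genes 5 were higher in Pvalb and 6 in Sst, near the 9.07% and 12% of all genes, with a median of -0.03. These counts show nothing about the list as a whole, and the members named here are single genes. Vamp1, the vesicle SNARE of fast synapses, was toward Pvalb with Syt2 (1.34 ± 0.32, adjusted p = 0.00748), as was the complexin gene Cplx1 (0.78 ± 0.19). Stx1a, the syntaxin of the release machinery, was toward Sst with Syt5 (1.66 ± 0.40, adjusted p = 0.00831). The value of Stx1a was -0.52 in the reduced 15 min set and -2.26 in the reduced 60 min set (log2 Pvalb over Sst). Of 49 synaptic adhesion genes 8 were higher in Pvalb and 9 in Sst, against 9.07% and 12% of all genes. Nxph2, a neurexophilin gene, was at 4.45 to 48.7 CPM in Pvalb and 0.0882 to 13.2 CPM in the 6 Sst libraries, which overlapped (2.92 ± 0.88, adjusted p = 0.0238, or 0.0523 without Sst 60 min replicate 5). Cntnap4, a neurexin-related protein gene, was at 69.9 to 156 CPM in Pvalb and 24.4 to 33.3 CPM in the 6 Sst libraries (1.91 ± 0.42). Nlgn3, a neuroligin gene, and Elfn2, the relative of Elfn1, were 1.41 ± 0.18 and 1.31 ± 0.26 log2 units higher in Sst.

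Perineuronal nets, the matrix sheaths that surround many parvalbumin cells, are built from proteoglycans, link proteins and hyaluronan. Of 20 genes in this list 5 were higher in Pvalb and 0 in Sst, the same 5 with and without the 3 libraries. They were the link protein Hapln1 (1.72 ± 0.48, adjusted p = 0.0165), the proteases Adamts15 (2.14 ± 0.40, adjusted p = 0.00198) and Mme (2.27 ± 0.48), the receptor phosphatase Ptprz1 (1.5 ± 0.34) and the proteoglycan Ncan (0.83 ± 0.20). Ptprz1 and Ncan are also glial genes: in the Pvalb line they were at 0.17 and -0.41 log2 units over the lysate, against 3.13 for Adamts15.

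In the list of myelination and axon node genes 7 of 16 were higher in Pvalb, 2 were higher in Sst and 7 were not called, against 9.07% and 12% of all genes. Ank1, an ankyrin gene, had the largest fold: it was at 53.7 to 123 CPM in Pvalb and 12.1 to 31.3 CPM in the 6 Sst libraries (2.17 ± 0.48, adjusted p = 0.00489). The spectrin gene Sptbn1 (1.91 ± 0.39) and the ankyrin genes Ank2 (1.89 ± 0.35) and Ank3 (1.38 ± 0.30), the last of which anchors channels at the initial segment, followed. The neurofilament gene Nefm was 1.36 ± 0.26 log2 units higher in Pvalb (adjusted p = 0.00197). Oxidative phosphorylation genes had 26 of 70 members higher in Pvalb and 2 higher in Sst, against 9.07% and 12% of all genes, with a median of 0.26 log2 units. Without the 3 libraries 27 were higher in Pvalb, 24 of them the same, and the median was 0.29. Cox6a2, the cytochrome oxidase subunit known from muscle and parvalbumin cells, was at 76.3 to 197 CPM in Pvalb and 25.7 to 85.3 CPM in the 6 Sst libraries (1.55 ± 0.32). Cox7b and Ndufa1, subunits of complexes IV and I, were 1.52 ± 0.37 and 1.17 ± 0.26 log2 units higher in Pvalb, and short transcripts such as these can share reads with processed pseudogenes. By its median, the difference in this list lay mainly in the 60 min set. In the reduced 15 min set 0 of the 70 genes were called in either direction and the median was 0.06. Only 0.632% of all genes were called toward Pvalb there and 0.691% toward Sst, so the count of 0 says little. In the reduced 60 min set 36 were higher in Pvalb and 9 in Sst, against 16.9% and 19.7% of all genes, with a median of 0.43. Cox7b and Ndufa1 were at 0.48 and 0.26 log2 units in the reduced 15 min set (adjusted p = 0.535 and 0.748) and at 2.04 and 1.70 in the reduced 60 min set. The summed level of the oxidative phosphorylation genes was 55057 to 66873 CPM in Pvalb, which the Sst 15 min libraries 1 and 4 reached with 57885 and 55118. The library labelled Sst 15 min replicate 2 was at 73024 CPM, above every Pvalb library. Sst 15 min replicate 3 was at 43322 CPM, and the Sst 60 min libraries were at 31560.0 to 44084.

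**Figure D4:**
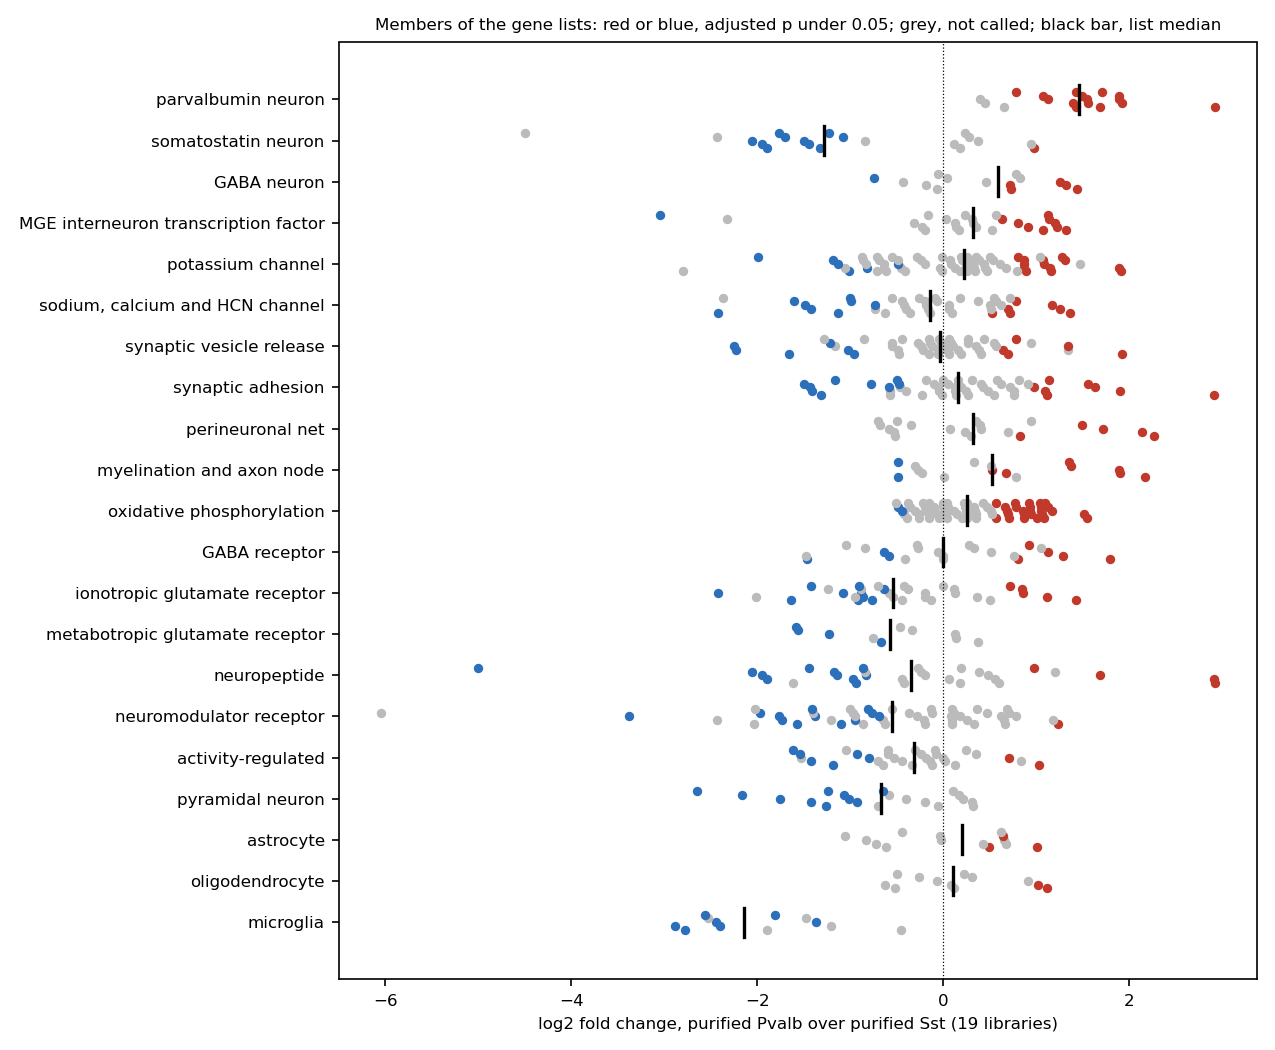
Log2 fold change of each tested member of 21 gene lists in purified Pvalb over purified Sst libraries (x axis; 19 libraries), red or blue where the adjusted p was under 0.05, grey otherwise, with a black bar at the list median. Parvalbumin neuron members lie to the right of 0, most somatostatin neuron and all microglia members to the left, and most channel and synapse lists reach to both sides.

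Of 22 GABA receptor genes 5 were higher in Pvalb, against 9.07% of all genes, and 3 in Sst, near the 12% of all genes. Gabrd, the delta subunit of extrasynaptic receptors, was 0.81 ± 0.22 log2 units higher in Pvalb. Gabrb2 and Gabrg3, a beta and a gamma subunit, were 1.29 ± 0.42 and 1.13 ± 0.35 higher in Pvalb, calls that were lost when any 1 of 6 or 4 libraries was left out (adjusted p up to 0.0759 and 0.0695). Kctd16, an auxiliary subunit of GABA-B receptors, was 1.46 ± 0.44 toward Sst, but not called without the 3 libraries (adjusted p = 0.0903). Gabra5 was toward Sst by 0.58 ± 0.16. Ionotropic glutamate receptor and auxiliary genes were toward Sst in 10 of 33 cases and toward Pvalb in 5, with a median of -0.54, and in 15 and 3 cases without the 3 libraries. Gria4, an AMPA receptor subunit of fast interneurons, was 1.43 ± 0.38 log2 units higher in Pvalb over all libraries, with 0.43 in the reduced 15 min set and 1.68 in the reduced 60 min set. The NMDA receptor subunits Grin2b (0.91 ± 0.21) and Grin3a (1.08 ± 0.25) and the kainate receptor subunit Grik4 (1.64 ± 0.39) were higher in Sst, as was Cacng5, an AMPA receptor auxiliary subunit gene (2.42 ± 0.58). Of 10 genes in the metabotropic glutamate receptor list 4 were higher in Sst, among them Grm4 and the scaffolds Homer2 and Homer3, and 0 in Pvalb.

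Neuropeptide genes were toward Sst in 11 of 30 cases and toward Pvalb in 4. Beside Sst, Penk and Pdyn the former held Pnoc, the nociceptin precursor (1.44 ± 0.27, adjusted p = 0.00173), at 27.5 to 75.1 CPM in Pvalb and 104 to 218 CPM in the 6 Sst libraries. Trh, the thyrotropin-releasing hormone gene, had the largest fold of the list (5.01 ± 1.57) at very low levels, 0 to 3.47 CPM in Sst and 0 to 0.581 CPM in Pvalb, and its adjusted p was 0.0513 without Sst 60 min replicate 3. Tac1, the substance P precursor, was toward Pvalb with Pthlh (1.69 ± 0.48, adjusted p = 0.0174). Receptors for neuromodulators were called toward Sst in 12 of 49 cases and toward Pvalb in 1, and in 13 and 1 without the 3 libraries. The dopamine receptor gene Drd2 was at 5.62 to 17.5 CPM in the 6 Sst and 0 to 1.62 CPM in the Pvalb libraries (3.38 ± 0.85, adjusted p = 0.0103). Sstr2, a somatostatin receptor gene, Adra2a, an adrenergic receptor gene, and Chrm3, a muscarinic receptor gene, were 1.97 ± 0.40, 1.73 ± 0.42 and 1.58 ± 0.26 log2 units higher in Sst. Tacr1, a substance P receptor, was 1.77 ± 0.60 higher in Sst, a call lost when any 1 of 9 libraries was left out (adjusted p up to 0.0758). The single gene toward Pvalb was Cckbr, the receptor for cholecystokinin (1.23 ± 0.21, adjusted p = 9.58e-04).

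Of 24 calcium-binding protein genes 3 were higher in Pvalb, close to the 9.07% of all genes, and 7 in Sst, against 12%. The neuronal calcium sensors Hpca and Hpcal4 were 1.65 ± 0.28 and 1.54 ± 0.22 log2 units higher in Sst (adjusted p = 9.58e-04 and 3.90e-04), and Hpcal4 was at 157 to 288 CPM in Pvalb and 422 to 680.4 CPM in the 6 Sst libraries. Growth factor signalling genes were higher in Pvalb in 6 of 32 cases, against 9.07% of all genes, and in Sst in 4, close to the 12% of all genes. The fibroblast growth factors Fgf1 (1.22 ± 0.22) and Fgf9 (1.15 ± 0.31) were toward Pvalb, and neurotrophin-3, Ntf3 (1.05 ± 0.25), and the GDNF receptor kinase Ret (1.27 ± 0.34) toward Sst. Of 23 cadherin genes 2 were higher in Pvalb and 4 in Sst, near the 9.07% and 12% of all genes. Cdh22 had the largest fold among the latter, at 3.69 to 12.5 CPM in Pvalb and 22.8 to 58.4 CPM in the 6 Sst libraries. Among 18 regulators of G protein signalling, Rgs4 was toward Pvalb (0.87 ± 0.20) and Rgs14 and Rgs19 toward Sst (0.97 ± 0.27 and 1.06 ± 0.18), near the shares of all genes. Rgs14 was at -0.10 in the reduced 15 min set and -1.58 in the reduced 60 min set (log2 Pvalb over Sst).

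Activity-regulated genes, in mice that had not left the home cage, were higher in Sst in 6 of 30 cases, against 12% of all genes, and higher in Pvalb in 2, below the 9.07% of all genes. In the reduced 15 min set 1 was higher in Sst, against 0.691% of all genes, and the median was 0.03. In the reduced 60 min set 15 were higher in Sst, against 19.7% of all genes, with a median of -0.81. Egr1, an immediate early transcription factor, was at 37.7 to 107 CPM in Pvalb and 144 to 278 CPM in the 6 Sst libraries (1.42 ± 0.25, adjusted p = 0.00144). Arc, which encodes a synaptic protein, was at 21.0 to 82.4 and 41.2 to 349 CPM, which overlapped (1.54 ± 0.33). Arc was below its lysate level in both lines, at -2.30 log2 units relative to it in Pvalb and -0.99 in the 6 Sst libraries. Egr4 and Junb were 1.61 ± 0.31 and 1.19 ± 0.27 log2 units higher in Sst. Pyramidal neurons express these genes strongly, and pyramidal markers moved the same way, as the next values show. Their part in these differences was not tested.

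Pyramidal neuron genes were higher in Sst in 10 of 20 cases and higher in Pvalb in 0, with and without the 3 libraries. Their summed level was 1332 to 2091 CPM in purified Pvalb, 2068 to 3857 CPM in the 6 Sst libraries, and 4659 and 7048 CPM in the Sst 60 min libraries 1 and 3. It was 5081 to 7056 CPM in Pvalb-line lysates and 2717 to 6849 CPM in Sst-line lysates. The Sst 60 min lysates 1, 2 and 3 were at 2717, 3298 and 3462 CPM, each below the purified library of its number (4659, 3857 and 7048 CPM). In the other Sst numbers the lysate was higher. Slc17a7, the vesicular glutamate transporter that defines them, was at 125 to 282 CPM in Pvalb and 135 to 1069 CPM in the 6 Sst libraries, which overlapped (1.76 ± 0.42, adjusted p = 0.00736). Wfs1, a marker of CA1 pyramidal cells, was 2.16 ± 0.26 log2 units higher in Sst and, unlike Slc17a7 (-0.49), was above its lysate level in the 6 Sst libraries (0.62). The part of this RNA in the genes called toward Sst was not tested.

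Microglia genes were called toward Sst in 7 of 12 cases over all libraries and in 1 without the 3. They were at 152 to 196 summed CPM in Pvalb and 115 to 360.1 in the 6 Sst libraries, but at 4093 and 4507 in the Sst 60 min libraries 1 and 3, above any lysate. Astrocyte genes were higher in Pvalb in 3 of 14 cases and in 7 without the 3 libraries, and oligodendrocyte genes in 2 of 12 and 1. Both lists were depleted against the lysate in both lines, with medians of -1.14 and -1.86 log2 units for astrocyte genes in Pvalb and in the 6 Sst libraries and -1.46 and -2.0 for oligodendrocyte genes. Their part in the genes called toward Pvalb was not tested. Of 9 oligodendrocyte precursor genes 1, C1ql1, and of 13 endothelial and mural genes 2, Acta2 and Itm2a, were higher in Pvalb, near the 9.07% of all genes, and none was higher in Sst. The call of Acta2 was lost when any 1 of 17 libraries was left out, with adjusted p up to 0.0904. Markers of interneurons from the caudal ganglionic eminence were higher in Sst in 5 of 16 cases and in 4 without the 3 libraries, and none was higher in Pvalb. Those with the largest fold were Npas1, also on the transcription factor list above, Ndnf, Lamp5 (1.22 ± 0.21) and Cxcl14 (1.03 ± 0.23). The call of Ndnf was lost when any 1 of 3 libraries was left out, with adjusted p up to 0.0568.

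Purified Pvalb RNA also held genes of ependymal cells, the ciliated cells that line the ventricles. The 3 ependymal genes among the 10 of the choroid plexus and ependyma list, Foxj1, Ccdc153 and Rsph1, were all higher in Pvalb and were the only members called. Foxj1, the transcription factor that drives motile cilia, was at 5.12 to 15.7 CPM in Pvalb and 0.370 to 3.81 CPM in Sst, with no overlap over all 19 libraries (2.36 ± 0.38, adjusted p = 7.22e-04). Ccdc153 was at 27.9 to 72.5 CPM in Pvalb and 1.38 to 4.90 CPM in the 6 Sst libraries, and at 39.9 CPM in the library labelled Sst 15 min replicate 2. Against its lysate it was 2.55 log2 units higher in purified Pvalb and -1.42 in the 6 Sst libraries. A longer list of 19 ependymal and motile cilium genes was drawn up after these values were seen, and 18 of them could be tested. It includes genes already known to be higher in Pvalb, Cd24a and Rarres2 of the 12 leading genes among them, so its counts only describe its members and add no support: 15 were called toward Pvalb with and without the 3 libraries, and 11 were enriched over the lysate in the Pvalb line and 0 in the Sst line. The summed level of the 18 was 458 to 874 CPM in purified Pvalb, 64.6 to 266 in Pvalb-line lysates, 36.6 to 75.0 in the 6 purified Sst libraries and 528 in the library labelled Sst 15 min replicate 2. The part of ependymal RNA in the other genes called toward Pvalb was not tested. The sum of the whole choroid plexus and ependyma list did not follow this pattern, since it ran from 116 to 5734 CPM among the Pvalb libraries and from 74.7 to 19118 CPM among their lysates.

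**Figure D5:**
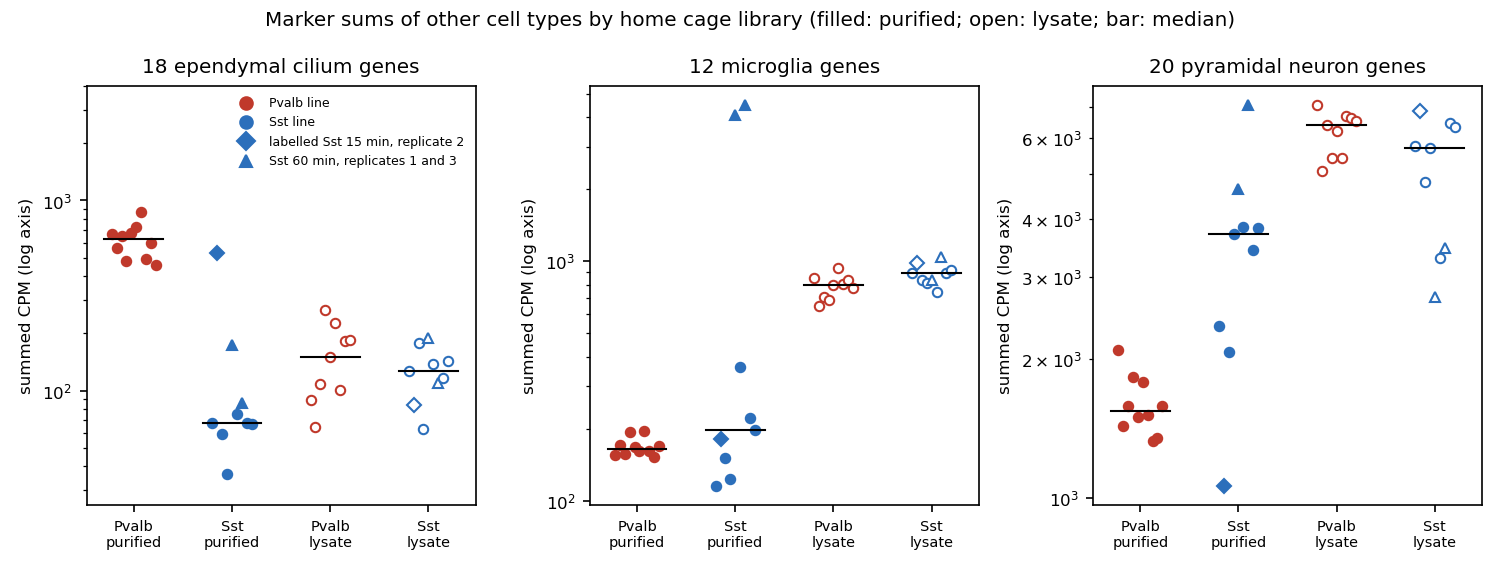
Summed CPM (y axis, log) of 18 ependymal cilium genes, 12 microglia genes and 20 pyramidal neuron genes in each home cage library by line and fraction, with bars at group medians. Ependymal genes lie above the lysates in purified Pvalb libraries and below most of them in purified Sst libraries, and the triangles show the microglial level of Sst 60 min replicates 1 and 3.

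More genes were called in the 60 min set than in the 15 min set. Alone, the 15 min set gave 0 genes at an adjusted p under 0.05 by edgeR, with 1264 at an unadjusted p under 0.05, and the 60 min set gave 3713 higher in Pvalb (23.5%) and 4028 higher in Sst (25.5%). Without the library labelled Sst 15 min replicate 2, the 15 min set gave 95 genes higher in Pvalb (0.632%) and 104 higher in Sst (0.691%). Without Sst 60 min replicates 1 and 3, the 60 min set gave 2748 (16.9%) and 3201 (19.7%). The Sst libraries left in it were replicates 2, 4 and 5, of which 4 and 5 had far higher total counts. A test of the interaction between line and time set called 3815 genes (23.1%) over all libraries, 971 (5.87%) without the 3, and 2357 without Pvalb 15 min replicate 1. Of the 1498 genes higher in Pvalb over all libraries, 62 were called in both reduced sets, and of the 1983 higher in Sst, 80, where these sets are parts of the same libraries. Cd24a (log2 difference 3.0 at 15 min and 3.51 at 60 min) and Ift27 (1.83 and 1.75) were called toward Pvalb in both reduced sets, and Npffr1 (-4.36 and -4.97) and Tagln3 (-2.09 and -2.02) toward Sst. They were 4 of 42 such genes among the 150 chosen for naming. Another 20 of the 150 differed by under 0.5 log2 units in the reduced 15 min set and were called in the reduced 60 min set, among them Gad1, Gria4, Gabrb2, Cox7b, Ndufa1, Nxph1, Rgs14 and Eif3d. For Gria4, Cox7b, Ndufa1, Rgs14 and Eif3d edgeR's interaction test found the 2 time sets to differ both over all libraries and without the 3 (adjusted p = 0.0208, 0.0157, 0.00905, 0.0460 and 0.0252 without them). For Gad1, Gabrb2 and Nxph1 it did so over all libraries but not without the 3 (adjusted p = 0.0565, 0.0862 and 0.0545). Of the 2 genes that name the classes, Pvalb was at 0.90 log2 units at 15 min (adjusted p = 0.165) and 1.70 at 60 min, and Sst at -1.93 (adjusted p = 0.0701) and -3.08.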

How the data were processed

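The authors deposited 1 table of raw read counts per line and time set, with 24391 genes in each, and the counts were used as deposited. STAR 2.7.7a, featureCounts and DESeq2 on the GRCm38 build are named, per the submitters' processing notes, and their roles and settings are not given in the sources used here. Per the labels' protocols the libraries were made from polyadenylated RNA with a kit that does not keep the strand, so overlapping genes can share reads.

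The members, gene lists and tests were chosen with earlier results of these data known, and leaving out the libraries that stood apart was chosen after seeing the data. Counts were fitted by edgeR 4.0.16 under R 4.3.3 (low counts removed by filterByExpr, TMM scaling, robust quasi-likelihood test, Benjamini-Hochberg adjustment over all genes tested, called at an adjusted p under 0.05), with limma 3.58.1 loaded, and with DESeq2 1.42.0 as an alternative. The purified fit had line and time set as terms. The lysate fit had the same terms. A fit over both fractions with a term for each table gave the difference beyond the lysate and the enrichment in each line. The SE of a log2 fold change was derived from its quasi-likelihood F value. CPM are counts scaled by the library's total. Named genes were the 12 with the smallest p in each direction among genes called also beyond the lysate and enriched over it in the line where they were higher, leaving out sex-linked genes and models that lack a symbol, up to 4 called members of each list by fold, and the 5 marker genes. A further set was added after values were seen. Gene positions were taken from GENCODE M21 on GRCm38, and 96.2% of tested genes had a GC content and length. Replicates were compared before averaging, and no pair of libraries differed by less than sampling noise. Of the home cage columns, 3 carried no replicate number and were used as replicates of their group. On simulated counts, 39.4% of genes changed 2-fold and 63.6% of genes changed 4-fold were recovered in the purified comparison (99 genes each among 16102), with 2.86% false calls. Far fewer genes were changed there than the 1498 and 1983 called in the data, so these shares need not hold for the data.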

Additional observations from a re-analysis of the deposited data

Results flagged for a closer look

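Among the 12 genes named in each direction and the 5 markers, 116 groups of 4 to 6 libraries were checked for a single value far from the rest. Such values were found in 3, where chance gives about 1 in 20 groups. All were in the library labelled Sst 15 min replicate 2, which held 142 CPM of Cd24a, 16.0 CPM of Rarres2 and 7.27 CPM of Dmkn, the first 2 of which belong to the added ependymal cilium list.

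The difference between the classes depended on the time set for 5 of the same 29 genes by edgeR's interaction test over all libraries, a smaller share than the 23.1% of all genes called in that test. It was larger toward Pvalb in the 60 min set by 1.51 log2 units for Ttc39b (adjusted p = 0.0242), 2.18 for Cd24a (adjusted p = 0.0295), 1.56 for Brip1os (adjusted p = 0.00956), 2.23 for Pvalb (adjusted p = 0.0318) and 2.07 for Syt2 (adjusted p = 0.0302). Without the 3 libraries that stood apart none of the 5 passed edgeR's test, with adjusted p from 0.0741 for Brip1os to 0.436 for Cd24a.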

How the results depend on the processing

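The counts of genes higher in Pvalb (1498) and in Sst (1983) in the purified fraction stayed within 1.5 times under DESeq2, DESeq2's size factors, no filter on low counts, all purified libraries of the 4 tables, sex or a non-neuronal marker score as a covariate, offsets for GC content and length, and without the 3 libraries. The 60 min set alone gave 3713 and 4028, or 2748 and 3201 without Sst replicates 1 and 3. The 15 min set alone gave 0 and 0, or 95 and 104 without the library labelled Sst 15 min replicate 2, with fewer libraries in each fit. Without the 3 libraries and Sst 60 min replicate 2, a choice made after seeing the data, 896 genes were higher in Pvalb.

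Leaving out single libraries gave 804 to 2037 genes higher in Pvalb, with 853 and 883 without Sst 60 min replicate 1 or 5, and 1497 to 3103 higher in Sst. Beyond the lysate it gave 1505 to 3206 and 2310 to 3558, where Sst 60 min lysates 1, 2 and 3 and purified replicates 1, 3 and 5 each left 1505 to 1698 higher in Pvalb, and the 3 libraries together left 1305. The lysate count of 99 ran from 18 without Pvalb 60 min replicate 6 to 2710 without Sst 60 min replicate 5 and moved by over 1.5 times for 15 of 18 lysates; it was 175 with DESeq2's size factors, 1823 with DESeq2, 2 without the 3 numbers and 39 without the 4 Sst lysates 15 min replicate 2 and 60 min replicates 1 to 3. The interaction count of 3815 ran from 2357 without Pvalb 15 min replicate 1 to 5220 and was 971 without the 3 libraries. Genes enriched over the lysate ran from 3416 to 3909 in Pvalb and from 2373 to 2916 in Sst.

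Same-numbered Pvalb and Sst libraries did not deviate together (correlations from -0.0861 to 0.0226 over 7 numbers). Of 15 purified libraries and lysates of 1 line and number, 7 correlated above 0.1 and 8 did not (-0.224 to 0.310), and 13 matched in the sex read from Y-linked genes while Pvalb 60 min numbers 2 and 3 did not. Since not every pair was above 0.1 and 2 numbers joined animals of different sex, the numbers were not taken as pairs, though some may be. With the replicate block, over the numbered libraries only, 12 genes were higher in Pvalb and 11 in Sst, 74 and 79 beyond the lysate, and 1970 were enriched over the lysate in Pvalb; the cause was not tested.

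Of the 152 genes with a test here, 144 kept their call without the 3 libraries, 7 lost it (Cldn11, Tmem119, C1qa, Csf1r, Kctd16, Efcab6 and Cacng2) and Npy gained it, and 30 lost it for at least 1 single library left out. In the 15 min set alone the sign turned, far from significance, for Dlx6os1 (-0.039), C1qb (0.27), Tmem119 (0.22), C1qa (0.0506), Csf1r (0.22), Gabrb2 (-0.0067), Rgs14 (0.024) and Eif3d (0.10), and without its library labelled Sst replicate 2 for C1qb (0.23), Tmem119 (0.25), C1qa (0.0504) and Csf1r (0.47); these are log2 Pvalb over Sst. The cause of these changes was not tested.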
